A study of Mus musculus with 6 samples.

Results

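The 9 genes described here are Alas1, Alad, Uros, Urod, Cpox, Ppox and Fech, which encode 7 enzymes of heme synthesis, and Clpx and Clpp, which encode the subunits of the mitochondrial protease ClpXP. They were taken by symbol from a deposited table of transcript levels, in which they have 51 of 128603 transcript lines and are 9 of 51803 gene symbols. Each of the 9 averaged 1 FPKM or more and was among the 12709 genes tested. They were chosen by their FPKM over the day in these same libraries together with their roles in heme synthesis, so the levels and fitted waves below are a description, and no test of these genes is drawn from them.

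The libraries come from kidneys of male BALB/c mice, an inbred albino strain, 8 weeks old and kept under a light/dark cycle. The groups are 6 zeitgeber times, which count hours from lights on, every 4 h from ZT0 to ZT20, with 1 library at each. Whether a library holds RNA of 1 mouse or of several is not given in the sources used here. No treatment, allele or transgene is named. With 1 library per time no value has a spread between replicates, and animal, dissection and time of day cannot be told apart. FPKM is fragments scaled to transcript length and library size, and the number of reads behind it is unknown.

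Heme is made in a chain that starts and ends in mitochondria and runs through the cytosol in between. ALAS1 joins glycine and succinyl-CoA in the first and rate-limiting step outside red cells, and heme lowers its own production by acting on ALAS1. ClpXP takes part in this control: ClpX is the ATP-driven unfoldase that selects and unfolds substrates, ClpP is the chamber that cuts them, and heme-bound ALAS1 is among the substrates known from mammalian cells. In yeast, ClpX without ClpP also helps the enzyme take up its cofactor pyridoxal phosphate. In liver, Alas1 is also known as an output of the circadian clock, and the clock repressors REV-ERBα and REV-ERBβ bind heme.

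Clpx is annotated with a pair of long coding transcripts that differ in 1 internal exon and whose levels followed different courses. Its exon 6 of 14, on the forward strand at chr9:65312098-65312139 (GRCm38), holds 42 bases, or 14 codons, and leaves the reading frame intact. The transcript with it, Clpx-201 (ENSMUST00000015501), has 1902 coding bases, and the transcript without it, Clpx-202 (ENSMUST00000113824), has 1860. The sequences below, from GENCODE transcripts, show the exon in capitals with 15 bases of the neighbouring exons on each side, and then the junction that forms when it is skipped.
Clpx-201: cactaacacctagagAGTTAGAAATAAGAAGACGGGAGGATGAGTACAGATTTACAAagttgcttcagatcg
Clpx-202: cactaacacctagagagttgcttcagatcg
The first 4 bases of the exon are also the first 4 bases of the exon that follows it. Clpx-201 is also annotated to start further upstream, at 65294260 against 65294295 for Clpx-202. The division of reads between these transcripts therefore rests on fragments in that 5′ stretch, further into the exon or across the skipping junction.

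Upstream sequences were read to show which known motifs the start regions of these genes hold. RefSeq windows of 250 bases before to 50 bases after a start site (GRCm38.p6) matched 8 of the 9 genes, in 11 windows, all but Fech. The clock factors' E-box, CACGTG, was in windows of Alad, Urod and Uros and in 2349 of all 32851 windows (7.15%). It was not in the windows of Alas1 or Clpx. The sites are shown in capitals, 5′ to 3′ on the gene's strand, with flanks to 30 bases; they lie 28, 49 and 250 bases before a RefSeq start site.
Alad (chr4:62519932-62519937, reverse strand): ccgccccgccccCACGTGggcttgcgcttt
Urod (chr4:116994457-116994462, reverse strand): cactggatcggtCACGTGgttctcaatatg
Uros (chr7:133709540-133709545, reverse strand): CACGTGtgctttctcacctcgtccacgatt
Alad had a further E-box 105 bases before its other start site. The site of nuclear respiratory factor 1, an activator of nuclear genes for mitochondrial proteins, searched as GCGC on each side of any 2 bases, was in windows of Alas1 and Uros and in 6.23% of all windows. Alas1 held 2 such sites, 224 and 195 bases before one RefSeq start; the window of its other start covers the same sites, and both lie in the first exon of the annotated transcript that starts furthest upstream.
Alas1 (chr9:106247945-106247954, reverse strand): gcttcggcgcGCGCGTGCGCgcggcaggcc
Alas1 (chr9:106247916-106247925, reverse strand): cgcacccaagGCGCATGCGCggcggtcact
Uros (chr7:133709333-133709342, reverse strand): cggtcacactGCGCCTGCGCgagtcccgcc
The D-box TTATGNAA (3.38% of all windows), the letters AGGTCA bound by ROR and REV-ERB (16.3%), the heat shock letters GAANNTTC (7.86%), the CRE TGACGTCA (1.79%) and TATAAA (13.6%) were in no window of the 8 genes. Each motif was searched on both strands, and overlaps between motifs were not removed. The 250 bases before the Clpx start, which is also the annotated start of Clpx-201, held none of the 7 motifs and are printed because Clpx differed most between times. They lie on the forward strand at chr9:65294010-65294259.
Clpx: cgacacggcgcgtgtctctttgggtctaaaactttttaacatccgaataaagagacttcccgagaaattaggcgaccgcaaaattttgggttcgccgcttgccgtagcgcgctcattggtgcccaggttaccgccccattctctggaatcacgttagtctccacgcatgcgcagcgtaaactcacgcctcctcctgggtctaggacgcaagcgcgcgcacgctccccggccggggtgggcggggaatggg
A match is a run of letters and not a measured binding site.

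The kidney label was checked against marker genes. All 8 proximal tubule markers had a mean of at least 1 FPKM, and their summed level lay between 2389 FPKM at ZT12 and 2857 FPKM at ZT4. The summed level of 9 markers of other nephron segments lay between 1366 FPKM at ZT4 and 1882 FPKM at ZT12. Umod alone lay between 719 and 1082 FPKM, so the sum hides other courses. Slc12a3 was at 173 FPKM at ZT0 and 112 at ZT8, and Aqp2 at 82.3 FPKM at ZT4 and 181 at ZT16. Of the proximal tubule markers 2 of 8, and of the others 4 of 9, differed by 1.5-fold or more, against 32.7% of all genes. Transcripts of the mitochondrial genome took between 22.2% (ZT20) and 28.6% (ZT4) of all FPKM. Size factors by the median of ratios stayed between -0.03 and 0.03 in log2.

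Alas1 and Clpx differed most between times, in opposite directions. Alas1 (chr9:106233455-106248654, reverse strand, ENSMUSG00000032786) summed over its transcripts to 45.7 FPKM at ZT0, 72.9 at ZT4, 108 at ZT8, 109.6 at ZT12, 102 at ZT16 and 75.5 at ZT20. It was lowest at lights on and highest from ZT8 to ZT16, 2.40-fold from the lowest to the highest library. The fitted 24 h wave, on log2(FPKM + 1), had an amplitude from mean to peak of 0.58 ± 0.10 (SE, n = 6 libraries) and a peak at ZT11.9 ± 0.63 h. These SEs rest on how far the values stray from a cosine, since no time was repeated. They use the limma variance, which is drawn toward that of other genes of like level, and hold no spread between replicates.

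Clpx (chr9:65294260-65330658, forward strand, ENSMUSG00000015357) ran the other way. It summed to 95.4 FPKM at ZT0, 67.0 at ZT4, 39.7 at ZT8, 36.6 at ZT12, 49.4 at ZT16 and 71.2 at ZT20. The ZT0 library was the highest and the ZT8 and ZT12 libraries the lowest, 2.61-fold apart. The wave fitted to it peaked at ZT23.3 ± 0.30 h, and its amplitude was 0.67 ± 0.05. Per length, there was less Alas1 than Clpx RNA at ZT0, with a ratio of 0.478. The ratio was 1.09 at ZT4, 2.72 at ZT8, 2.997 at ZT12, 2.05 at ZT16 and 1.06 at ZT20. In whole tissue, fewer cells of a type and less RNA per cell cannot be told apart.

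**Figure D1:**
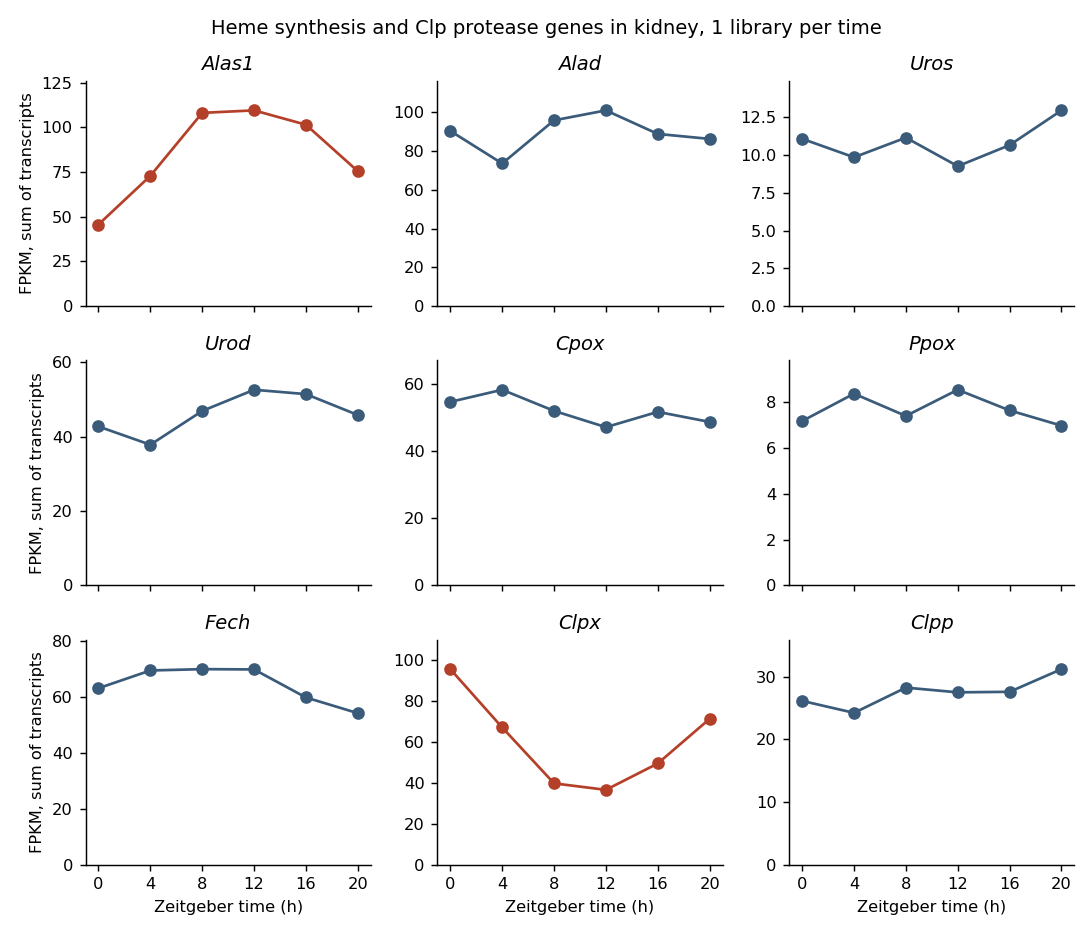
Level of each gene in FPKM, summed over its transcripts (vertical axis, from 0), by zeitgeber time in h (horizontal axis), with 1 point per library. Alas1 and Clpx (red) run in opposite directions, with Alas1 at 45.7 and Clpx at 95.4 FPKM at ZT0, and the sums of the other 7 genes (blue) stay within 1.40-fold.

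ClpP, the partner of ClpX, did not share its course. Clpp has 1 transcript line, which was at 26.2 FPKM at ZT0, 24.2 at ZT4, 28.3 at ZT8, 27.5 at ZT12, 27.6 at ZT16 and 31.2 at ZT20. The ZT20 library was highest and ZT4 lowest, 1.29-fold apart, and the fitted amplitude was 0.10 ± 0.06. The level of Clpp was 0.274 of that of Clpx at ZT0 and 0.753 of it at ZT12, with Clpp itself nearly flat.

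The cytosolic enzymes that follow ALAS1 were flatter. Alad, for the dehydratase that joins a pair of aminolevulinate molecules into porphobilinogen, was at 90.4 FPKM at ZT0, 73.6 at ZT4, 95.9 at ZT8, 101 at ZT12, 88.9 at ZT16 and 86.3 at ZT20. The ZT4 library was the lowest and the ZT12 library the highest, 1.37-fold apart. Uros, for the synthase that closes the tetrapyrrole ring, lay between 9.27 FPKM at ZT12 and 12.97 FPKM at ZT20, with 11.1, 9.86, 11.2 and 10.7 FPKM at ZT0, ZT4, ZT8 and ZT16. Urod, for the decarboxylase that makes coproporphyrinogen, was at 42.7, 37.8, 46.9, 52.6, 51.4 and 45.8 FPKM from ZT0 to ZT20. Its ZT12 and ZT16 libraries were the highest and ZT4 the lowest, 1.39-fold apart.

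The mitochondrial enzymes that finish the chain had no common course. Cpox, for the oxidase that makes protoporphyrinogen, had its highest library at ZT4, 58.2 FPKM, and its lowest at ZT12, 47.1 FPKM, and was at 54.6, 51.9, 51.6 and 48.6 FPKM at ZT0, ZT8, ZT16 and ZT20. Ppox, for the oxidase that makes protoporphyrin, was the least abundant of the 9 genes, at 7.18, 8.37, 7.40, 8.54, 7.64 and 6.97 FPKM from ZT0 to ZT20. Fech, for the ferrochelatase that inserts iron, was at 63.1 FPKM at ZT0, between 69.5 and 69.9 FPKM from ZT4 to ZT12, at 59.8 FPKM at ZT16 and at 54.2 FPKM at ZT20. Its lowest libraries were thus those of ZT16 and ZT20, with a fitted amplitude of 0.18 ± 0.05 and a peak at ZT7.58. With all Alas1 lines summed, there was more Fech than Alas1 RNA per length at ZT0, with a ratio of 1.38. At the other times there was less, with ratios between 0.589 at ZT16 and 0.953 at ZT4. The full-length coding lines of Alas1 alone lay between 19.0 FPKM at ZT0 and 40.6 FPKM at ZT12. Against these lines Fech was higher in every library.

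By mean summed level the order was Alad (89.4 FPKM), Alas1 (85.6), Fech (64.4), Clpx (59.9), Cpox (51.99), Urod (46.2), Clpp (27.5), Uros (10.8) and Ppox (7.68). The sum for Alas1 includes a short line of its 5′ end and lines with no coding frame, given below. The ranges over the day of each gene and the next overlap from Alad down to Urod. The lowest Urod library (37.8 FPKM) stood above the highest Clpp library (31.2 FPKM), which stood above the highest Uros library (12.97 FPKM), and Uros stood above Ppox (at most 8.54 FPKM) in every library.

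Set beside all genes tested, 2 of the 9 genes reached 1.5-fold between the highest and the lowest library, against 32.7% of 12709 genes, and the same 2 reached 2-fold, against 11.3%. Since Alas1 and Clpx were picked for this course, nothing is read from these counts. Their folds stood at the 93.9th and 95.3rd percentiles of all genes. The median fold of the 9 genes was 1.37, against 1.36 over all genes tested. The other 7 genes had folds between 1.22 and 1.40, with a median of 1.29. Of these, Uros passed 1.5-fold when its most abundant transcript (1.82) or its protein-coding lines alone (1.53) stood for the gene. In the fit of a 24 h wave across all genes (limma, moderated F test), 1 of the 9 genes, Clpx, had a Benjamini-Hochberg adjusted p under 0.05, against 0.283% of all genes. At an unadjusted p under 0.05 these were 4, Alas1, Urod, Fech and Clpx, against 19.1%. Urod left that group with its most abundant transcript, with protein-coding lines only, with fragments per gene and without ZT12, and Fech left it without ZT16 or without ZT20. Uros entered it with its most abundant transcript and without ZT8. With any 1 library left out, Clpx no longer had an adjusted p under 0.05 (0.0576 to 0.135), while its unadjusted p stayed under 0.05. Without the ZT0 library the fold of Clpx was 1.95 and that of Alas1 1.503, against 2.61 and 2.40 with it.

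**Figure D2:**
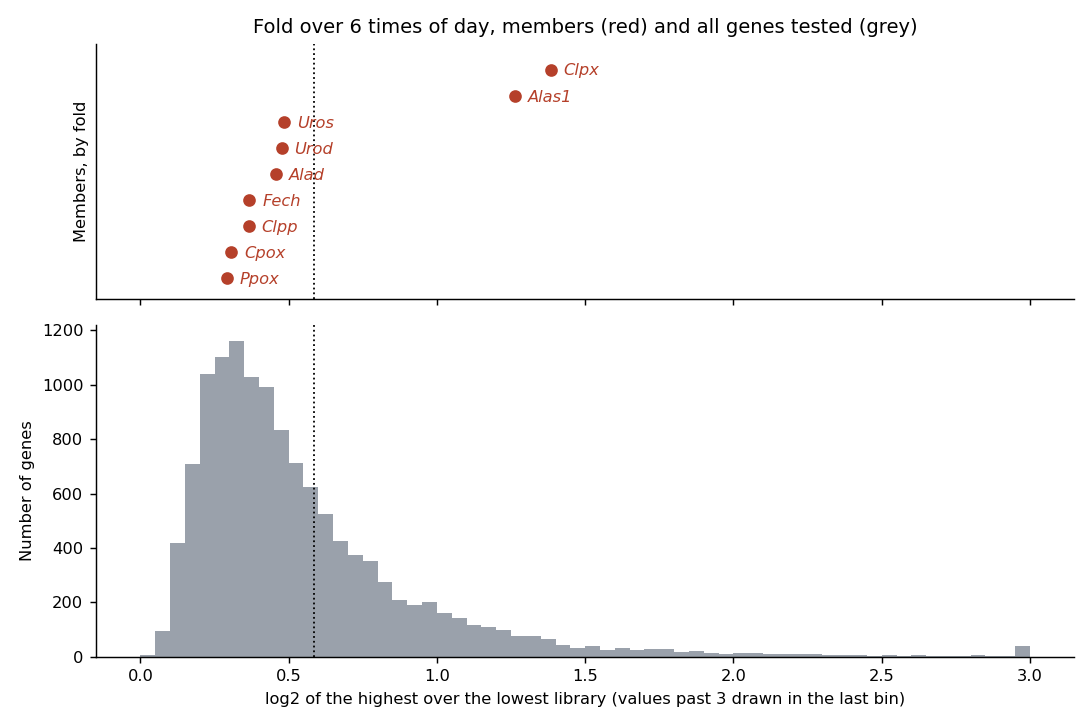
Log2 of the highest over the lowest of 6 libraries (horizontal axis) for the 9 genes (upper panel, red, 1 row each) and as the number of genes per bin for 12613 of the genes tested (lower panel, grey). The 96 genes listed at 0 in a library are left out. Clpx and Alas1 stand right of the dotted line at 1.5-fold and the other 7 genes left of it, with transcripts summed.

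The transcripts of Clpx did not share 1 course. Clpx-201, which held 75.0% of the gene's FPKM, was at 78.0, 53.7, 33.6, 27.8, 30.2 and 45.9 FPKM from ZT0 to ZT20. Clpx-202 was at 15.6, 13.2, 5.67, 8.63, 18.8 and 25.0 FPKM. Clpx-201 was highest at ZT0 and lowest at ZT12, with a fitted peak at ZT0.58 ± 0.43 h. Clpx-202 was highest at ZT20 and lowest at ZT8, with a fitted peak at ZT20.4 ± 0.60 h. The skipping form made up 16.7% of the pair at ZT0, 19.7% at ZT4, 14.4% at ZT8, 23.7% at ZT12, 38.3% at ZT16 and 35.3% at ZT20. Its share was thus higher in the libraries of ZT16 and ZT20 than in the other 4. The other Clpx lines, Clpx-203 and Clpx-204, had means under 0.5 FPKM. How precisely reads were divided between these forms cannot be told from FPKM values.

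The transcripts of Alas1 moved more nearly together. Of 13 lines, 5 had a mean of at least 1 FPKM. The main full-length coding transcript (ENSMUST00000074082, 11 exons, 1923 coding bases) was at 16.1, 25.4, 36.6, 37.3, 33.0 and 26.5 FPKM over the 6 times, and held between 32.5% and 35.3% of the gene at each of them. A short transcript of the 5′ end (ENSMUST00000215222, 4 exons, 460 bases) had the highest mean FPKM, with 12.9, 23.98, 45.6, 38.2, 40.7 and 28.5 FPKM. It held 37.0% of the gene's FPKM but 11.6% of its fragments (FPKM times length), while the main transcript held 49.6% of the fragments. A processed transcript with no annotated coding frame (ENSMUST00000134053) was at 7.13, 10.3, 14.4, 15.6, 13.01 and 9.40 FPKM. Each of these 3 lines was lowest at ZT0 and highest at ZT8 or ZT12.

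A retained-intron line of Alas1 (ENSMUST00000214249), between 5.79 FPKM at ZT0 and 10.7 FPKM at ZT12, was also low at ZT8, with 6.64 FPKM. A coding transcript with a longer first exon (ENSMUST00000141118) stayed between 2.11 and 3.77 FPKM. With the 3 full-length coding lines alone, the ratio of Alas1 to the sum of Clpx-201 and Clpx-202 was 0.203 at ZT0, 0.411 at ZT4, 1.03 at ZT8, 1.11 at ZT12, 0.739 at ZT16 and 0.420 at ZT20. It too was lowest at ZT0 and highest at ZT12.

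**Figure D3:**
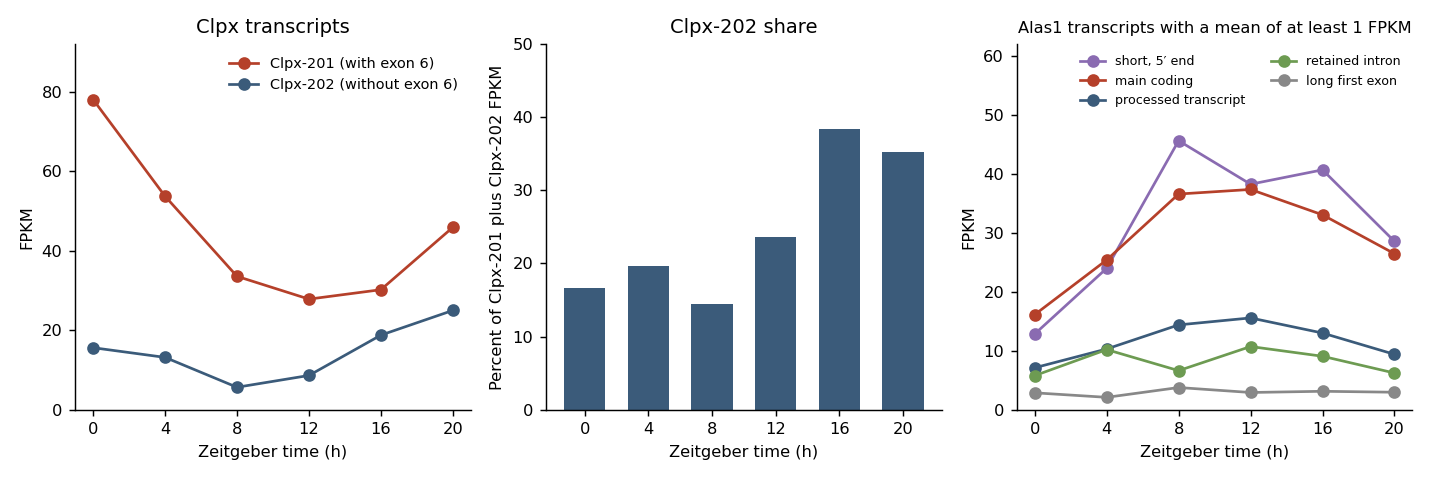
FPKM of the Clpx transcripts (left), the Clpx-202 share of both in percent (middle, bars from 0) and FPKM of the 5 Alas1 transcripts that averaged 1 FPKM or more (right), by zeitgeber time in h with 1 library each. The Clpx-202 share is 38.3% at ZT16 and 35.3% at ZT20 against at most 23.7% at the other times, and the 3 most abundant Alas1 transcripts are all lowest at ZT0.

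Single lines of the other enzymes show where a gene's sum and its coding transcript part. Urod-201, the full-length coding transcript, stayed between 20.04 FPKM at ZT4 and 23.9 FPKM at ZT12, 1.20-fold. The retained-intron line Urod-202 lay between 8.06 FPKM at ZT0 and 14.6 FPKM at ZT4, and Urod-203 between 2.21 FPKM at ZT4 and 8.30 FPKM at ZT8. Urod-210, of 162 bases, was listed at 0 at ZT4 and ZT20 and at 8.76 FPKM at ZT12. The amplitude of Urod was 0.21 for the sum and 0.08 with protein-coding lines only.

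Uros split in a like way. Uros-203 was at 4.50, 3.65, 4.05, 4.63, 5.30 and 6.65 FPKM from ZT0 to ZT20, with a fitted peak at ZT18.2. Uros-201, with the same 795 coding bases, was at 2.51, 1.73, 2.93, 1.98, 1.35 and 2.26 FPKM and was lowest at ZT16. Uros-206, a retained-intron line, lay between 1.303 FPKM at ZT12 and 2.87 FPKM at ZT4. Of the Ppox lines the highest was not the coding one: the retained-intron line Ppox-206 had a mean of 2.65 FPKM and the coding Ppox-201 a mean of 2.21 FPKM. Alad-201 held 96.0% of Alad, while Cpox and Fech each have 1 line. Over the 51 lines, 30 had a mean of at least 0.5 FPKM, 22 a mean of at least 1 FPKM, and 7 were listed at 0 in all libraries. Of the 22 lines tested singly, 0 had an adjusted p under 0.05 (limma), against 0% of 21596 transcripts, and 7 an unadjusted p under 0.05, against 15.2%. By ordinary least squares 2 of all 21596 transcripts had an adjusted p under 0.05.

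Ppox overlaps B4galt3 over 907 bases and Uros overlaps Bccip over 740 bases, in each case on the opposite strand. The libraries were made strand-specific, but whether strand was used in estimating the levels is not given in the sources used here. B4galt3 had a mean of 10.7 FPKM and Bccip of 50.3 FPKM, so the levels of Ppox and Uros are uncertain where they overlap.

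Alas2, the form of the first enzyme in red cell precursors, was at 2.36, 2.53, 1.89, 3.52, 4.68 and 4.12 FPKM from ZT0 to ZT20. Its lowest library was ZT8 and its highest ZT16, and its course was not that of Alas1. Haemoglobin RNA was likewise lowest at ZT8, where Hbb-bs had 79.1 FPKM, against 204 FPKM at ZT16. The sum of the 10 erythroid markers analysed lay between 149 FPKM at ZT8 and 338 FPKM at ZT16. None was at 0 in every library, though Klf1 and Epb42 had means under 0.5 FPKM. The sum of 10 podocyte, endothelial, stromal and immune markers lay between 40.8 FPKM at ZT12 and 86.2 FPKM at ZT20. All 9 of them that were tested differed by 1.5-fold or more, against 32.7% of all genes. Some of the 9 had means not far above the filter of 1 FPKM. The sum was thus lowest in the same library as Clpx, and stood at 52.03 FPKM at ZT0, where Clpx was highest. The part of these other cells in the courses of Alas1 and Clpx was not tested.

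Related gene lists, chosen with earlier results of these libraries known, are given by their counts, and a gene is said to pass where the limma fit of a 24 h wave gave it an unadjusted p under 0.05. Over all genes 19.1% passed, 7.94% with a fitted peak before ZT12 and 11.2% with a later one. Of 15 genes that bring substrates and intermediates to heme synthesis, 1 passed. It was Slc25a38, the mitochondrial glycine carrier, at 10.7 FPKM at ZT4 and 17.3 FPKM at ZT16, with a fitted peak at ZT17.5. Tspo, for a protein of the outer mitochondrial membrane, had a fold of 1.46 and did not pass. The median fold of this list was 1.17. Of 11 genes of heme breakdown, export and carriage, 3 passed, and the median fold was 1.22. Hmox1, for the heme oxygenase that opens the ring, was between 16.1 and 17.7 FPKM from ZT0 to ZT12, at 29.4 FPKM at ZT16 and at 38.6 FPKM at ZT20. Blvra, for biliverdin reductase, had 34.3 FPKM at ZT8 and 25.4 FPKM at ZT20, and Abcg2, for a porphyrin exporter, 209 FPKM at ZT4 and 161 FPKM at ZT20. Blvrb, for the other biliverdin reductase, lay between 5.92 and 8.30 FPKM and did not pass.

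Among 18 other mitochondrial proteases and chaperones, 2 passed, with a median fold of 1.23. They were Afg3l2, a subunit of the matrix AAA protease, between 31.4 FPKM at ZT20 and 39.3 FPKM at ZT4, and the chaperonin gene Hspe1, between 141 FPKM at ZT4 and 208 FPKM at ZT16. Lonp1, the other soluble matrix protease known to act on ALAS1, was flat, at 52.4 to 57.4 FPKM. No gene of this list had the fold of Clpx, the largest being 2.10 in Immp2l, which did not pass (2.64 to 5.53 FPKM), nor did Immp1l and Parl, with folds of 1.49 and 1.31. Of 14 genes of iron uptake, storage and iron-sulphur clusters, 1 passed. It was Ncoa4, the receptor that delivers ferritin for breakdown, at 25.3 FPKM at ZT0 and 36.1 FPKM at ZT12, and the median fold of the list was 1.296. The ferritin gene Ftl1, Steap3 and Slc11a2 had folds of 1.64, 1.61 and 1.38 and did not pass. Ftl1, Hspe1 and the globin genes have near-identical copies in the genome, so their levels are uncertain.

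The list of transcriptional regulators of Alas1 holds clock genes, and 8 of its 17 tested genes passed, 4 with a fitted peak before ZT12 and 4 after. The other genes that passed, besides those given here, were Ppargc1b, Nr1d2, Clock and Lpin1. Npas2, Nr1d1 and Arntl had an adjusted p under 0.05 (limma, 0.0225, 0.0228 and 0.0408). Npas2, a clock activator, was at 9.78 FPKM at ZT0, 3.01 at ZT4, 0.354 at ZT8, 0.186 at ZT12, 1.65 at ZT16 and 10.05 at ZT20. Clpx and Npas2 were thus both lowest at ZT12, where Alas1 was highest, but Npas2 was highest at ZT20 and Clpx at ZT0. A link between these genes was not tested. Nr1d1, the gene of REV-ERBα, reached 39.97 FPKM in the ZT4 library and had 1.14 FPKM at ZT20. Arntl, the partner of Npas2, had 0.371 FPKM at ZT8 and 10.7 FPKM at ZT20. Per2, a clock repressor, had its lowest library at ZT0, 0.941 FPKM, and its highest at ZT16, 11.8 FPKM. Ppargc1a, for a coactivator of Alas1 in fasted liver, was between 10.9 FPKM at ZT20 and 15.9 FPKM at ZT12 and did not pass. The median fold of the list was 1.66.

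**Figure D4:**
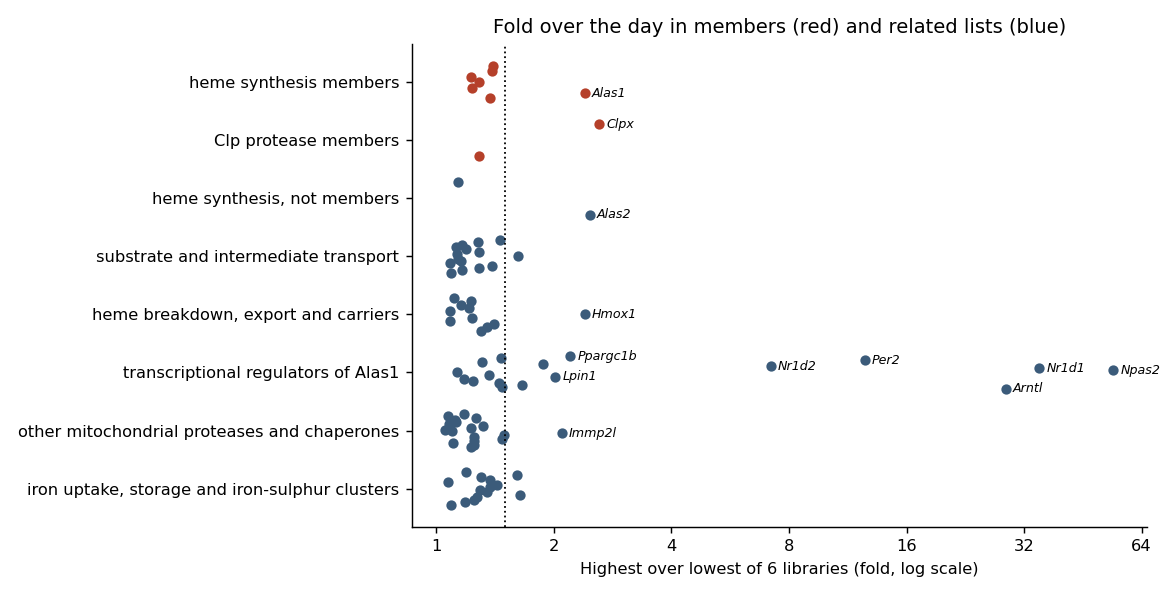
Highest over lowest of 6 libraries as a fold on a log axis (horizontal) for each gene tested, with the lists on the vertical axis, the 9 genes described here in red at the top and related lists in blue. The dotted line marks 1.5-fold. Clpx (2.61) and Alas1 (2.40) are the only members right of it when transcripts are summed.

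Among 1440 genes averaging 5 FPKM or more and differing by 1.5-fold or more, unnamed gene models and small RNAs left out, those most like Clpx were Cluh, Tnfaip2, Bcl7c, Tmem64 and Wsb1. Pearson's r of log2(FPKM + 1) over the 6 libraries was 0.984, 0.976, 0.975, 0.970 and 0.964 in that order. All 5 were highest at ZT0 and lowest at ZT12, Cluh at 59.6 and 35.8 FPKM and Wsb1 at 64.2 and 29.2 FPKM. Those most like Alas1 were Nmrk1, Cys1, Papd7, Glul and the pseudogene Ak3l2-ps, with r of 0.985, 0.964, 0.957, 0.953 and 0.942. All 5 were lowest at ZT0 and highest at ZT12, Nmrk1 at 10.3 and 25.6 FPKM and Glul at 142 and 282 FPKM. With 6 libraries and this many genes, such values of r are a ranking only, and the level of Ak3l2-ps is uncertain because a pseudogene can share reads with its parent gene.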

How the data were processed

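The authors deposited FPKM per Ensembl transcript, 1 column per library, per the file headers. The transcript length in bases stands in the same table. Per the submitters' processing notes, bcl2fastq 2.20 and the build mm9 were used; aligner and estimating tool: not given in the sources used here. Of 128066 table transcripts found in GENCODE M21 (GRCm38), 98.6% lay inside the locus the table gives, so positions are on GRCm38. Depth is unknown: among the lowest products of FPKM and length, 99.9% to 100% of values were distinct, so whole reads were not recovered.

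The 9 genes and all lists were chosen with earlier results of these data known. Levels are sums over the transcripts of a symbol. Those averaging 1 FPKM or more were fitted on log2(FPKM + 1), which understates amplitudes of low genes (folds are plain FPKM ratios), with a cosine and a sine of 24 h in limma 3.58.1 (R 4.3.3, eBayes with trend, 3 residual degrees of freedom) and adjusted by Benjamini-Hochberg. Named genes are the 9 genes, their lines of at least 0.5 FPKM, up to 4 genes of largest fold per list (some are not reported here), preset genes and the 5 most alike; list genes outside these (Afg3l2, Ppargc1b, Nr1d2, Clock and Lpin1) were chosen after their values were seen. Other scalings, filters, pseudocounts, thresholds, transcript choices and single libraries left out were tried. Other steps used Python 3.11.15, pandas 2.3.3 and numpy 2.4.6.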

Additional observations from a re-analysis of the deposited data

How the results depend on the processing

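Single libraries limit all values. The number of genes with an adjusted p under 0.05 for a 24 h wave was 36. It was 2 with the most abundant transcript in place of the sum, 0 without a filter, 7 without trend, 2 by ordinary least squares, 121 at a threshold of 0.1, 129 with protein-coding transcripts only and between 0 and 4 when a time was left out. Clpx, the 1 gene of the 9 that passed, gave 0 with the most abundant transcript (limma adjusted p = 0.0769), no filter (0.197), no trend (0.0608), ordinary least squares (0.290) and any time left out (0 in each case, 0.0576 to 0.135). It was kept under the other alternatives, between 0.00787 and 0.0349. The number of genes at an unadjusted p under 0.05 was 2428, and between 1154 (without ZT20) and 2468 with a time left out. At least 1.5-fold were 4161 genes, 16139 without a filter and 1722 with a minimum mean of 5 FPKM. For single transcripts the adjusted count was 0, and 2 by ordinary least squares; the unadjusted count was 3277, and 6004 without a filter, 1829 with a minimum of 5 FPKM and between 1787 (without ZT20) and 3352 with a time left out. The amplitude of Clpx lay between 0.62 and 0.72 under the alternatives that refit it. That of Alas1 lay between 0.41 without ZT0 and 0.73 with its most abundant transcript, which is the short one of its 5′ end. Genes of the 9 at 1.5-fold or more were 2, and 3 with the most abundant transcript or protein-coding transcripts only, where Uros joined (1.82 and 1.53); with its most abundant transcript its amplitude was 0.30, against 0.13 for the sum. Summed FPKM weights short transcripts as much as long ones. Fragments per gene and protein-coding transcripts were added after seeing the data. No paired analysis was possible because each time has 1 library.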
